A study of Homo sapiens with 4 samples.

Results

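Lineage identity of the NCI-H838 cells was examined through 9 transcription factors of lung and foregut endoderm, chosen by name and not by their values: NKX2-1, FOXA1, FOXA2, GATA6, SOX2, SOX9, TP63, HNF4A and CEBPA. Each matched a single identifier among the 58302 genes listed. NCI-H838 is an established line of human lung carcinoma (non-small-cell). The MIB1-iKO cells were obtained by single-cell cloning. They carry a guide RNA against MIB1, which encodes the E3 ubiquitin ligase Mind Bomb 1, and a Cas9 gene that is switched on by doxycycline (dox). RNA-seq was performed at day 3 on 2 samples without dox and 2 samples with dox at 0.5 μg/mL. The samples without dox also carry a guide against MIB1 and the Cas9 gene. No sample received dox in the absence of the guide, so an effect of dox itself cannot be told apart from that of MIB1 loss. The study describes the replicates of each condition as biological. All are MIB1-iKO cells, and the methods do not state whether all samples share a clone. The p-values measure the spread between these samples, with the variance of each gene drawn in large part from that of all genes tested.

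These factors define the branches of the foregut. NKX2-1 marks the lung bud and, in the adult lung, drives surfactant genes in alveolar type II cells and secretory genes in airway cells. FOXA1 and FOXA2 are forkhead pioneer factors that open chromatin in endoderm, and GATA6 acts beside them from early endoderm onward. SOX2 specifies the proximal airway, SOX9 the distal bud tips, and TP63 the basal cells and squamous epithelium. HNF4A drives the liver and gut program and is often present in lung adenocarcinomas of mucinous type that lack NKX2-1. CEBPA is a leucine zipper factor of liver, myeloid and alveolar cells.

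Promoter sequence is one feature of these factors that the choice did not use. Promoters from RefSeq (GRCh38.p14) were found for 7 of the 9 factors. Those of 4 factors are shown, taken from the ends of the range of levels described below. GATA6 was the highest of the 9 factors, and NKX2-1, SOX2 and TP63 were listed at 0 reads. Each line gives the 250 bases before the annotated start, 5′ to 3′ on the strand of the gene, with CG pairs in capitals, since CG pairs are the sites of DNA methylation. The start used for NKX2-1 is the first of those RefSeq lists and lies within the gene as GENCODE draws it. For TP63 the promoters used hold 1 start, at the 5′ end of the gene, so any start within TP63 is not covered.
GATA6 (chr18:22169339-22169588, plus strand): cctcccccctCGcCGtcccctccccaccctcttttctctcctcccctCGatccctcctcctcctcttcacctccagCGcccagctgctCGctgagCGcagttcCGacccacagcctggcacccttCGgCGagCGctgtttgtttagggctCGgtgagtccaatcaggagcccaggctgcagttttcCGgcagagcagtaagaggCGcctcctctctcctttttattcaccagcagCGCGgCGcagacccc
NKX2-1 (chr14:36520233-36520482, minus strand): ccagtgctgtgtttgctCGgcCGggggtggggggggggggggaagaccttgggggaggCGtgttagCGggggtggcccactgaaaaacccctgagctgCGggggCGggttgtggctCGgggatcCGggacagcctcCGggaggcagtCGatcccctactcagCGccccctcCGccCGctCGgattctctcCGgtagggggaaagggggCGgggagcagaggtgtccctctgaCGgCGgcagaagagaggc
SOX2 (chr3:181711675-181711924, plus strand): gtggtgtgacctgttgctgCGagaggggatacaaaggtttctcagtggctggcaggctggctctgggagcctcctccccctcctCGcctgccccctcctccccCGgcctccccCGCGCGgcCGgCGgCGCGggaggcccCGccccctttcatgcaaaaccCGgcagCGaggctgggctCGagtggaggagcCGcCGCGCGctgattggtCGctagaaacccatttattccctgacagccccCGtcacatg
TP63 (chr3:189631139-189631388, plus strand): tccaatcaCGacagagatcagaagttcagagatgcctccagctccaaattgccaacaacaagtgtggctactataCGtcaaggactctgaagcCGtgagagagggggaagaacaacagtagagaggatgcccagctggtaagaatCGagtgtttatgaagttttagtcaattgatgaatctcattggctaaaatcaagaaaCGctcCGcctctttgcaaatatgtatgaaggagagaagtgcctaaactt

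CG pairs numbered 16 before GATA6, 18 before the NKX2-1 start shown, 20 before SOX2 and 6 before TP63. Over all 35116 RefSeq promoters of the same length the median was 11 CG pairs, and 41.0%, 36.8%, 32.4% and 61.9% of promoters held at least as many as those of GATA6, NKX2-1, SOX2 and TP63. The other NKX2-1 start that RefSeq lists, not shown, had 7 pairs before it, and 58.9% of promoters held at least as many. The highest count among the 7 factors was that of CEBPA, with 41 pairs. FOXA1 had 26 pairs, and each of the 2 starts listed for HNF4A had 8. Of the 9 promoters listed for these factors 5 lay above the median, as did 48.5% of all promoters. The factors at 0 reads thus included promoters with more CG pairs and with fewer CG pairs than GATA6. Methylation was not measured in these libraries.

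None of the 9 factors reached 1 RPKM in any library. RPKM, the deposited reads scaled by gene model length and by depth, is a level per length, so values of different genes can be set side by side. Together the 9 factors took 397 of the 78597845 reads of the 4 libraries, or 5.05 RPM (reads scaled to depth). The median protein-coding gene had a mean of 0.980 RPKM over the 4 libraries, and 47.8% of the 19708 protein-coding genes had 1 RPKM or more in each of them.

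GATA6 (ENSG00000141448, chromosome 18, 22169589 to 22202528, plus strand) had the highest level. Its RPKM was 0.561 and 0.788 in the libraries without dox and 0.549 and 0.811 in the dox libraries, from 52, 68, 33 and 58 reads. Replicate 2 was the higher library in each group, and the groups overlapped. GATA6 lay above 47.1% of protein-coding genes in mean RPKM. Of its exon bases, 10.9% lie under an exon of another annotated gene, namely GATA6-AS1 and an unnamed gene, and GATA6-AS1 had 12 reads over the 4 libraries.

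SOX9 (ENSG00000125398, chromosome 17, 72121020 to 72126416, plus strand) followed, at 0.270 and 0.372 RPKM in the libraries without dox and 0.417 and 0.519 RPKM in the dox libraries, from 25, 32, 25 and 37 reads. Both dox libraries were above both libraries without dox. The lowest GATA6 value (0.549 RPKM) was above the highest SOX9 value (0.519 RPKM), so these neighbours in the order did not overlap over the 4 libraries. SOX9 lies within the span of the noncoding gene SOX9-AS1 on the opposite strand, but shares no exon base with it. SOX9-AS1 had 16 reads in all.

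CEBPA (ENSG00000245848, chromosome 19, 33299934 to 33302534, minus strand) had an RPKM of 0.0971 and 0.278 in the libraries without dox and of 0.224 and 0.147 in the dox libraries, from 6, 16, 9 and 7 reads. The libraries without dox were its lowest and its highest. Its range overlapped that of SOX9, although SOX9 was higher within each of the 4 libraries. Other annotated genes cover 43.9% of the CEBPA exon bases, and counting is not stated to use strand, so these reads are uncertain.

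FOXA1 (ENSG00000129514, chromosome 14, 37589552 to 37596059, minus strand) had 1 and 10 reads without dox and 3 and 3 reads with dox, a mean of 0.0753 RPKM. HNF4A (ENSG00000101076, chromosome 20, 44355699 to 44432845, plus strand) had 5 and 4 reads without dox and 3 and 0 reads with dox, a mean of 0.0206 RPKM. The ranges of CEBPA and FOXA1 overlapped, as did those of FOXA1 and HNF4A, which exchanged places in no dox replicate 1. Gene counts do not separate the 2 promoters listed for HNF4A.

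NKX2-1 (chromosome 14, 36516392 to 36521149, minus strand), FOXA2 (chromosome 20, 22580998 to 22585455, minus strand), SOX2 (chromosome 3, 181711925 to 181714436, plus strand) and TP63 (chromosome 3, 189631389 to 189897276, plus strand) were listed at 0 reads in all 4 libraries. A count of 0 over the 4 libraries allows up to 3 reads in sum. Per kilobase of the longest annotated transcript this limit was 0.0148 RPM for NKX2-1, 0.0150 for FOXA2, 0.0152 for SOX2 and 0.00772 for TP63. On the same scale GATA6, pooled over the 4 libraries, had 0.741 RPM per kilobase. NKX2-1 was therefore at least 50.1-fold lower than GATA6, FOXA2 at least 49.3-fold, SOX2 at least 48.8-fold and TP63 at least 95.95-fold lower, by counting error only.

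**Figure D1:**
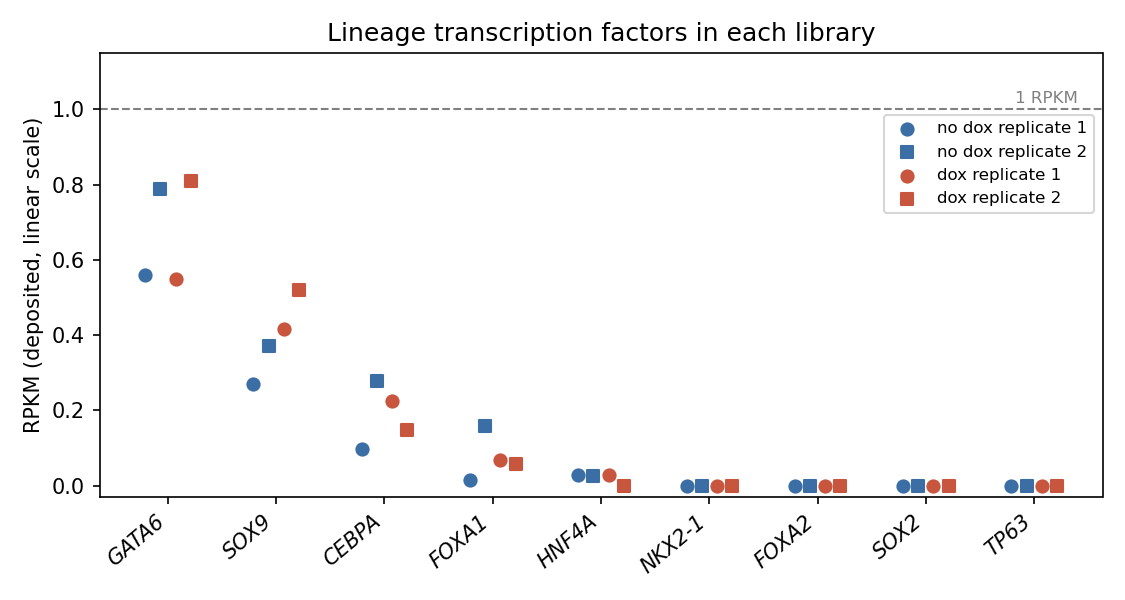
Deposited RPKM (linear axis) of each lineage factor in the 4 libraries, ordered by mean; each point is 1 library, blue without dox and red with dox, and the dashed line marks 1 RPKM. GATA6 (0.549 to 0.811 RPKM) and SOX9 (0.270 to 0.519 RPKM) stand above the rest, and NKX2-1, FOXA2, SOX2 and TP63 lie at 0.

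A listed 0 can also arise in the counting. EIF4A1 and POLR2F, which every cell uses, were likewise listed at 0 reads in all 4 libraries (named after their values were seen). Exons of other genes cover 47.4% of the EIF4A1 exon bases and 3.71% of those of POLR2F. For NKX2-1 the share was 40.7%, under NKX2-1-AS1 and SFTA3, and CEBPA, which had reads, had a like share. FOXA2, SOX2 and TP63 shared no exon base with another gene in GENCODE release 44. SOX2 lies within the span of SOX2-OT, which had 8 reads in all. Whether the counting gave the 0 of any factor was not tested. Of all protein-coding genes, 23.1% had 0 reads in the 4 libraries. The longest transcripts of the factors at 0 had between 42.4% (TP63) and 60.6% (NKX2-1) G and C. Transcripts of 66.2% and 65.97% G and C, those of CEBPB and CEBPD, were read at 45.2 and 36.1 RPKM. Whether G and C content played a part in the 0 of any factor was not tested.

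The genes around NKX2-1 were compared next. MBIP, which ends 196 kilobases before NKX2-1 in chromosome order, had 38.0 and 32.2 RPKM in the libraries without dox and 37.4 and 33.99 RPKM in the dox libraries. Past NKX2-1, NKX2-8 at 58.9 kilobases had 0 reads and PAX9 at 136 kilobases had 4 reads in all. NKX2-1-AS1, which overlaps NKX2-1, was also at 0, as were both genes named SFTA3. FOXA1 lies 1068 kilobases above NKX2-1 on the same chromosome.

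Other members of the same families were expressed at higher levels. Of 18 family members listed, 4 had 1 RPKM or more in each library, and 10 had 0 reads. CEBPB, a leucine zipper factor of inflammatory and stress responses, had 42.2, 45.8, 44.1 and 48.7 RPKM in no dox replicates 1 and 2 and dox replicates 1 and 2. CEBPD had 34.9, 36.1, 35.1 and 38.2 RPKM, and CEBPG had 6.59, 7.23, 7.48 and 6.78 RPKM in the same order. The mean RPKM of CEBPB was 242-fold that of CEBPA, and the ratio within a library lay between 165 and 435. GATA2, a factor of blood and endothelial cells, was above GATA6 in 4 of 4 libraries, with a ratio of means of 3.56. FOXA3, a forkhead factor of liver and gut, was above FOXA1 in 4 of 4 libraries, with a ratio of means of 16.0 that rests on few FOXA1 reads. GATA2 and FOXA3 were named after their values were seen. GATA3, GATA4, GATA5 and HNF4G were at 0, and TP73 had 6 and 5 reads in no dox replicate 2 and dox replicate 1 and 0 in the other libraries.

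**Figure D2:**
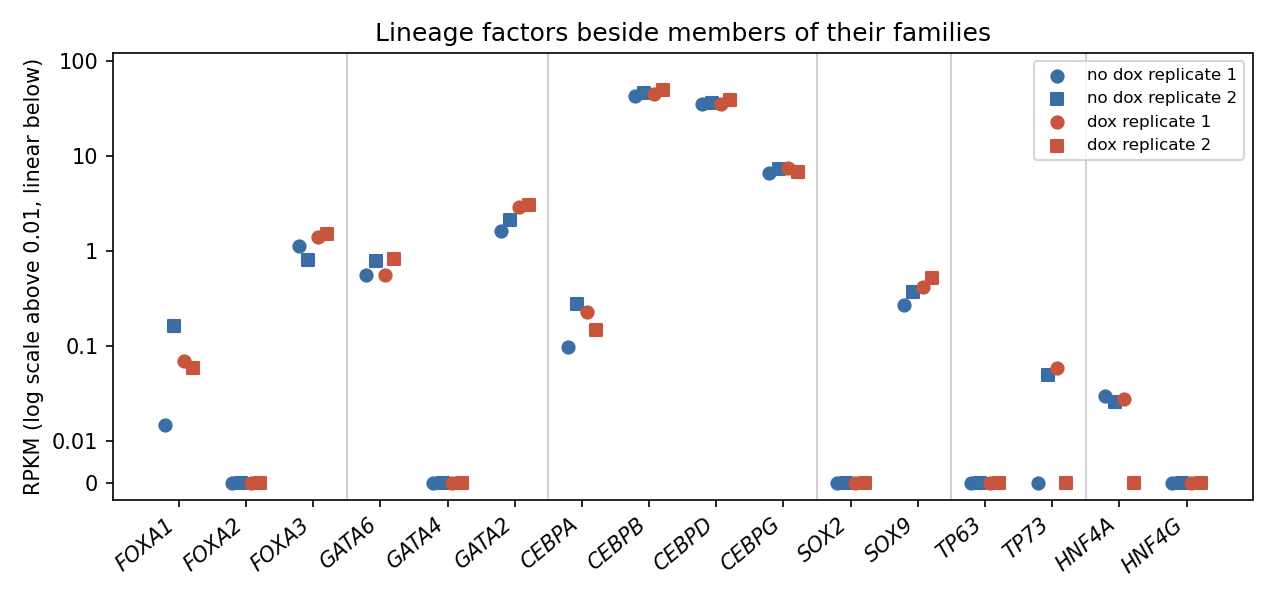
Deposited RPKM of lineage factors beside members of their families (log axis above 0.01 RPKM, linear below); each point is 1 library. CEBPB, CEBPD and CEBPG lie above CEBPA, GATA2 above GATA6 and FOXA3 above FOXA1 in 4 of 4 libraries, while FOXA2, GATA4, SOX2, TP63 and HNF4G lie at 0.

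Genes that mark the lineages in which these factors act were then counted. Among 11 alveolar type II genes, 2 had 1 RPKM or more in each library: ABCA3, a lipid transporter of lamellar bodies, at a mean of 3.70 RPKM and LPCAT1, a surfactant lipid enzyme, at 3.64 RPKM. SFTPA1, SFTPA2, SFTPB and PGC had 0 reads, and SFTPC, a surfactant protein gene used to define type II cells, had between 3 and 8 reads per library. None of 10 airway secretory genes reached 1 RPKM, and 7 had 0 reads, the secretoglobins SCGB1A1, SCGB3A1 and SCGB3A2 among them. Of 14 basal and squamous genes 4 had 1 RPKM or more in each library, with KRT17 at 16.8, BNC1 at 5.12 and S100A2 at 4.71 RPKM in the mean, whereas KRT5 had at most 1 read in a library. Of 6 ciliated cell genes 2 had this level, TPPP3 at 9.54 and FOXJ1, the factor of motile cilia, at 2.49 RPKM. Among 21 gut and liver genes 13 had 0 reads and none had 1 RPKM in each library. APOA1 was the highest of them, with 2.21 and 1.09 RPKM in the libraries without dox and a mean of 1.35 RPKM over all 4.

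Of 14 factors of the developing lung bud, 4 had 1 RPKM or more in each library. ETV5 and ETV4, which respond to FGF signals in the distal bud, had means of 13.7 and 5.54 RPKM, and FOXP1 had 3.38 RPKM. Of 6 definitive endoderm genes 1 had this level, HHEX at 1.33 RPKM. The next in level, MIXL1 and EOMES, had means of 0.369 and 0.0347 RPKM. Of 8 neuroendocrine and tuft genes 1 had it, the Notch ligand gene DLL3 at 4.70 RPKM, while INSM1, a factor of neuroendocrine cells, had 0 reads. CALCA and SYP had means of 1.19 and 0.578 RPKM.

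The labelled tissue is lung. Of 6 general epithelial markers 5 had 1 RPKM or more in each library, led by KRT18, KRT7 and KRT8 at means of 45.0, 34.5 and 19.98 RPKM, and KRT19 had 0 reads. KRT8, KRT17 and KRT18 have pseudogenes with which reads may be shared. Among 9 epithelial transcription factors 1 had 1 RPKM or more in each library, KLF5 at 15.2 RPKM, while ELF3 had a mean of 0.661 RPKM and GRHL2 was at 0. None of 9 markers of immune, endothelial or stromal cells reached 1 RPKM, and their RPKM summed to between 0.324 and 0.877 per library. PTPRC and CD68 were at 0, although exons of other genes cover 85.6% of the CD68 exon bases. By rank, the lineage factors with the most RNA were GATA6 and SOX9. No list of alveolar, airway, basal, ciliated, gut or liver genes was read as a whole: KRT17, BNC1, S100A2 and TRIM29 of the basal and squamous list and ABCA3 and LPCAT1 of the alveolar list had 1 RPKM or more in each library, while KRT5, TP63, SFTPC and NKX2-1 were at or near 0.

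**Figure D3:**
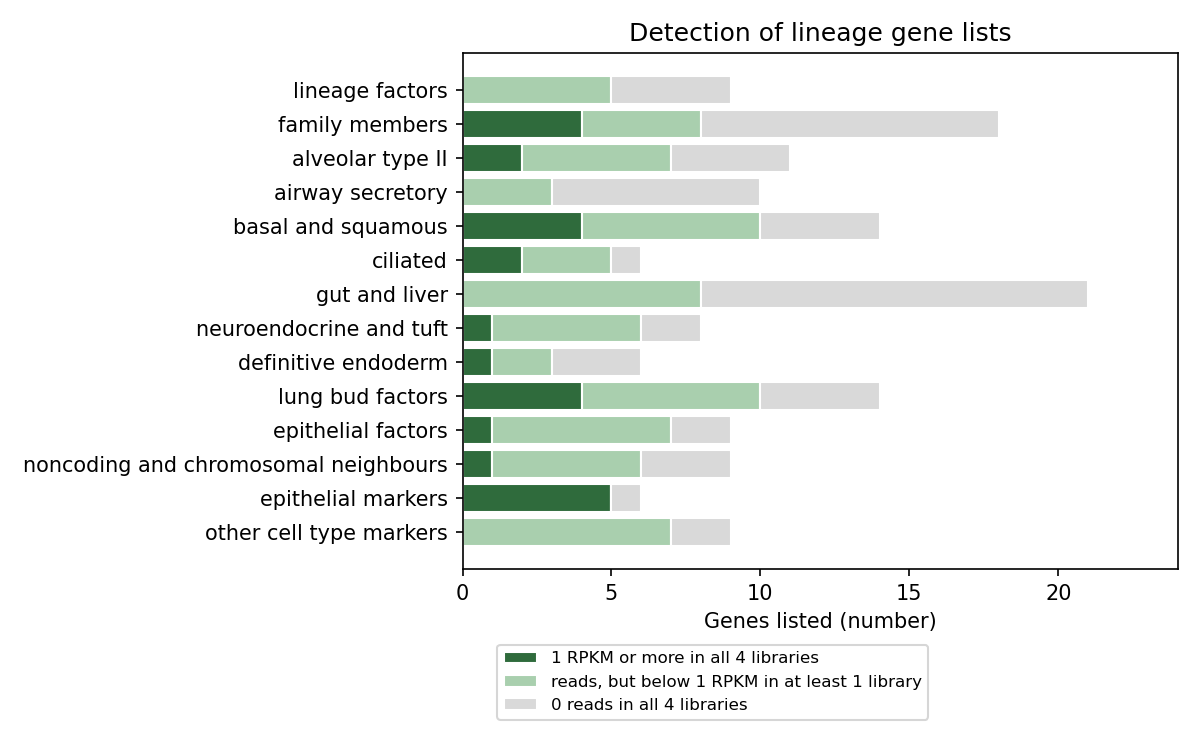
Number of genes in each list with 1 RPKM or more in all 4 libraries (dark), with reads but below 1 RPKM in at least 1 library (light) and with 0 reads in all 4 libraries (grey). None of the 9 lineage factors falls in the dark class, against 5 of 6 epithelial markers.

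Whether the factors change when MIB1 is disrupted was examined between dox and no dox libraries. The study examines MIB1 as a regulator of BMP signaling, a pathway that also acts in foregut patterning in the embryo. MIB1 itself averaged 2.73 ± 0.104 RPKM in the libraries without dox and 0.478 ± 0.196 RPKM in the dox libraries (SD, n = 2 per group). In limma its log2 fold change was -2.58 ± 0.23 (SE), with an adjusted p of 0.000375, a direction that fits the labels. Library totals ranged from 15943025 to 24398411 reads and were lower with dox. In bulk RNA, fewer cells of a type and less RNA per cell cannot be told apart. With 2 samples against 2 the smallest p of an exact permutation test is 0.333, and p-values are therefore from limma, fitted and adjusted over 16181 genes.

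Of the 9 factors, 3 had enough reads to be tested (GATA6, SOX9 and CEBPA) and none met the call rule (adjusted p up to 0.05 with at least a 2-fold change), which 0.0371% of all genes tested met. None had an unadjusted p under 0.05 in limma, and none was called in edgeR. DESeq2 gave an adjusted p for GATA6 alone (0.999) and did not call it. For SOX9 and CEBPA it gave no adjusted p, so it could not call them. For GATA6 the log2 difference was -0.0092 ± 0.32 (SE), with an adjusted p of 0.997 in limma. Its 95% interval ran from -0.69 to 0.67, which is 0.618-fold to 1.60-fold, and its sign differed among the alternatives, as did that of CEBPA. This gene lies 299 kilobases beyond the end of MIB1 on chromosome 18. Its mean RPKM was 0.674 ± 0.160 in the group without dox and 0.680 ± 0.185 in the dox group (SD, n = 2 per group).

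Of the 3 factors SOX9 had the largest estimate, 0.51 ± 0.37 (SE) on the log2 scale with an adjusted p of 0.712 in limma and a 95% interval from -0.27 to 1.29. Its mean RPKM was 0.321 ± 0.0715 in the group without dox and 0.468 ± 0.0721 in the dox group (SD, n = 2 per group). It was the single factor tested whose groups did not overlap on normalized log2 CPM (read counts scaled to depth), where the groups did not overlap in 38.6% of all genes tested, 19.5% with dox higher. CEBPA had 0.08 ± 0.62 (SE; limma, adjusted p = 0.982) and an interval from -1.23 to 1.40, which spans more than 2-fold in either direction. At these read numbers a 2-fold difference in CEBPA was not detectable. The other 6 factors had too few reads to compare the groups.

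**Figure D4:**
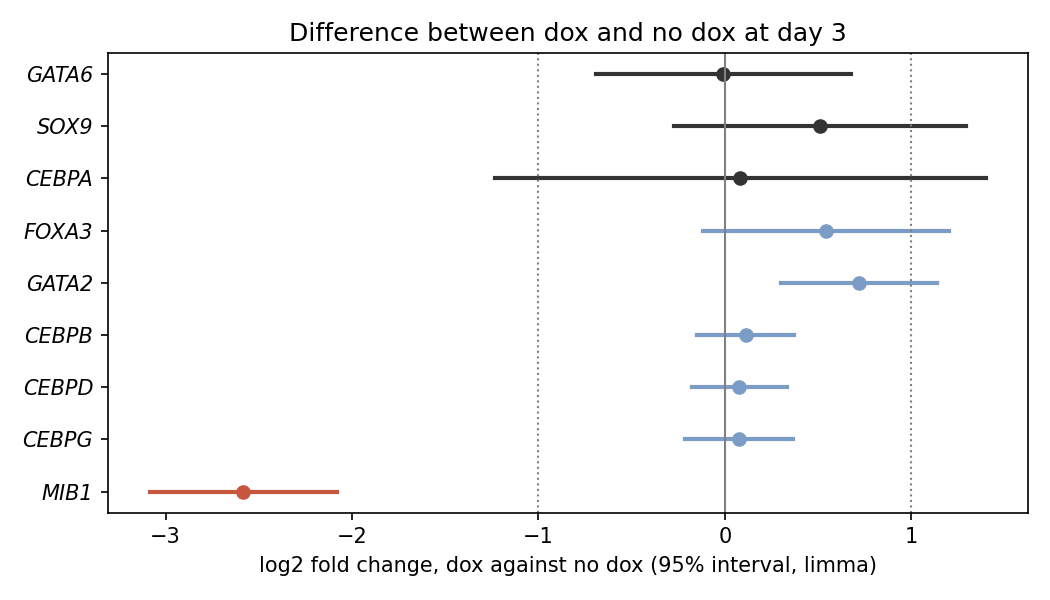
Log2 fold change of dox against no dox (points) with its 95% interval from limma (lines) for the factors tested (black), members of their families (blue) and MIB1 (red); dotted lines mark a 2-fold change. The intervals of GATA6, SOX9 and CEBPA include 0, and that of MIB1 lies below a 2-fold decrease.

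Among the 13 other lists, 47 of 141 genes were tested and limma called none. Unadjusted p-values under 0.05 were found for 8 of the 47, and for 9.28% of all genes tested. Neither edgeR nor DESeq2 called any, although DESeq2 could call only genes to which it gave an adjusted p. No overlap between the groups was found for 16 of the 47, 8 higher and 8 lower with dox, where 38.6% of all genes tested showed none. The lowest adjusted p was that of TRIM29 (limma, adjusted p = 0.165), a basal and squamous gene that differed by -0.87 ± 0.18 (SE) on the log2 scale, with 3.05, 3.87, 1.76 and 1.94 RPKM. TRIM29 was named after its values were seen. KRT17 had 20.4, 19.8, 13.0 and 13.9 RPKM and a log2 difference of -0.55, with an adjusted p of 0.228 in limma. The other basal and squamous genes tested, BNC1 and S100A2, had estimates above 0. These were 0.07 for BNC1 (limma, adjusted p = 0.915) and 0.16 for S100A2 (limma, adjusted p = 0.889).

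Of the family members, all 6 tested had estimates above 0. Their median log2 difference was 0.13, beside a median of -0.0004 over all genes tested. Without no dox replicate 1 the family median was 0.30. The highest estimate was that of GATA2, 0.72 ± 0.20 (SE; limma, adjusted p = 0.257), and the next that of FOXA3, 0.54 ± 0.31 (SE; limma, adjusted p = 0.626). CEBPB, CEBPD and CEBPG had 0.11, 0.08 and 0.08, and each of their intervals lay within 1.30-fold in either direction. Of the alveolar type II genes 3 were tested, with a median of 0.01 that was 0.21 without dox replicate 1 and -0.12 without dox replicate 2. Of the lung bud factors 10 were tested, with a median of -0.11 that was -0.19 without no dox replicate 1 and 0.09 over those with a mean count of at least 50. ETV5 had 0.27 (limma, adjusted p = 0.537) and was the only 1 of the 10 with both dox libraries above both libraries without dox. In 2 of the 10 both dox libraries were below both without dox, TBX3 (-0.92, limma adjusted p = 0.550) and FOXP4 (-0.51, limma adjusted p = 0.635). TBX3 and FOXP4 were named after their values were seen. Over all genes tested the groups did not overlap in 38.6%, 19.5% with dox higher and 19.1% with dox lower.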

How the data were processed

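Groups and replicate numbers of the 4 libraries come from the sample labels. Per the methods, the authors discarded ribosomal reads, used GSNAP to align the others to GRCh38, and obtained exon counts per gene with HTSeqGenie; the annotation named is RefSeq, whereas the identifiers are Ensembl. The deposited counts are whole reads per gene. The deposited RPKM were made by the authors from such counts per kilobase of gene model and by depth, with a further scaling per sample. Whether counting used strand is not given in the sources used here.

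Symbols, positions, exon overlaps and transcript lengths are from GENCODE release 44 (GRCh38), where 57532 of 58302 identifiers matched. After a filter that the study does not name (filterByExpr, 16181 genes kept), counts were scaled by library size and quantile-normalized, weighted with voom and fitted with limma 3.58.1 in R 4.3.3, as in the study. A call required a Benjamini-Hochberg adjusted p up to 0.05 and at least a 2-fold change either way. In limma the variance of each gene was moderated toward that of all genes tested, with 12.3 prior degrees of freedom. Intervals are 95% for each gene, not adjusted over genes. Alternatives used edgeR 4.0.16, DESeq2 1.42.0, other scalings and filters, a model of log2 RPKM with a pseudocount of 0.1 or 1, a replicate block, and leaving out each library. In each list the 3 genes with the highest mean RPKM, and any called, are named; others are given as counts or examples, and some listed genes are not reported here. The factors and lists were chosen with earlier results of these data known. A count of 0 is taken to allow 3 reads; such limits cover counting error only.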

Additional observations from a re-analysis of the deposited data

How the results depend on the processing

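No lineage factor and none of the other listed genes was called in any alternative with a test. Several of these alternatives say little about the factors. SOX9 and CEBPA were not tested at a mean count of at least 50 and had no adjusted p in DESeq2. GATA6 had none in DESeq2 with filtering tuned to 0.05. With no filter beyond 1 read and on log2 RPKM no gene at all was called, MIB1 included. No factor reached 2 RPKM, or 1 read per kilobase of longest transcript scaled to depth, in each library. At 0.5 RPKM 1 factor passed, GATA6. Without any library in turn the count at 1 RPKM ranged from 0 to 0. Over all genes the count called was 6 as reported, 0 with no filter beyond 1 read, 0 on log2(RPKM + 0.1), 0 on log2(RPKM + 1), 78 with the replicate block, and 2 with DESeq2 when its independent filtering was tuned to 0.05, an alternative added after the data were seen. The cause was not tested.

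The sign of GATA6 was not fixed. Its log2 fold change was 0.032 in edgeR, 0.033 in DESeq2 with either filtering, 0.041 with voom and TMM, 0.049 with library size only, 0.051 at a mean count of at least 50, 0.0055 on log2(RPKM + 0.1) and 0.0038 on log2(RPKM + 1), and it ranged from -0.31 to 0.29 with a library left out. CEBPA turned to -0.014 in edgeR, -0.011 in DESeq2 with either filtering and -0.049 with the replicate block, and ranged from -0.69 to 0.76 with a library left out. SOX9 was positive throughout, from 0.26 to 0.72 with a library left out and 0.15 on log2(RPKM + 1), with adjusted p-values from 0.489 to 0.793 over 7 alternatives. MIB1 was not called with no filter (-2.58, adjusted p = 0.613), on log2(RPKM + 0.1) (-2.33, adjusted p = 0.108) or on log2(RPKM + 1) (-1.34, adjusted p = 0.0962), and ranged from -2.998 to -2.16 with a library left out. Leaving out a library left 1 sample in a group, and fold changes alone were taken from those fits. Of 194 list medians under alternatives, 166 moved by less than the spread between replicates. That of the family members moved further with each library left out, to between 0.16 and 0.30.

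Replicate numbers are shared by the groups, with no label that explains them. The difference between replicates 1 and 2 without dox correlated with that with dox across 16181 genes at r = 0.13, which is across genes and no replicate check. With the replicate block, 8 listed genes had an adjusted p of at most 0.05 in limma, TRIM29, KRT18, KRT17, KRT8, GATA2 and KLF5 among them, all short of 2-fold, and none was a lineage factor. Of the 9 factors 6 had too few reads to be tested.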
